A study of Mus musculus with 12 samples.

Results

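Cux1, Cux2, Pou3f2, Pou3f3, Rorb, Mef2c, Inhba and Kitl are genes whose transcripts are known from upper-layer neurons of the cerebral cortex. They were chosen by gene symbol, and all 8 were found among the 34102 genes of the table. Their RNA counts were compared in 12 mouse libraries of the strain C57BL/6, in 4 groups of 3. The cortex controls carried the genotype Srsf10 flox/flox without Nestin-Cre, and the libraries labelled cKO (conditional knockout) carried Srsf10 flox/flox with Nestin-Cre. Both cortex groups thus held the floxed alleles, and no group carried Nestin-Cre alone, so an effect of the transgene and one of Srsf10 loss cannot be told apart. Nestin-Cre makes Cre recombinase in neural progenitors and hence in their descendants, not in upper-layer neurons alone. The cultured libraries were primary neural progenitor cells (NPC), wild type by label in the controls and labelled SRSF10 knockdown in the others. They were grown in suspension with bFGF and EGF and harvested 72 h after infection with lentivirus at a multiplicity of 30. The labels do not say which virus the controls received. No age of the mice is stated in the sources used here. That the libraries are separate animals or cultures is not stated either, so p-values measure the spread between these libraries only.

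The cortex is built from the inside out, with deep-layer neurons born before the upper-layer neurons that settle above them and send many of their axons across the midline. CUX1 and CUX2 are homeodomain factors of layers II to IV that shape dendrites and synapses. POU3F2 and POU3F3 (BRN2 and BRN1) act together in the migration and production of upper-layer neurons. RORB is a nuclear receptor of layer IV, and MEF2C is a MADS-box factor of neuronal differentiation and synapse number. Inhba encodes the subunit of the secreted ligand activin A, and Kitl encodes the ligand of the receptor KIT. Several of these genes are also known from other cells, among them Cux1 and the POU genes in progenitors, Mef2c in microglia and endothelium, Cux2 and Mef2c in interneurons, and Kitl in glia and endothelium.

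The libraries held 26074094 to 36713205 counts. Srsf10 stood at 205 ± 12.4 CPM (counts-per-million, relative to all counts of that library, given as mean ± SD, n = 3) in control cortex and at 213 ± 20.1 CPM in the libraries labelled cKO. It stood at 232 ± 12.4 CPM in control NPC and 226 ± 12.0 CPM in the libraries labelled knockdown, so a whole-gene count does not bear out either label. Directions below rest on the labels, and a deleted exon or lost protein was not tested. Neuronal genes marked the cortex, where Tubb3 stood at 2278 ± 314 CPM and the deep-layer gene Tbr1 at 221 ± 6.24 CPM in controls. In control NPC, Nes, a gene of progenitors, stood at 1930 ± 46.3 CPM and Tubb3 at 12.5 ± 1.30 CPM (n = 3). Other markers separated the systems less. The neuronal genes Map2 (1046 ± 64.8 CPM, against 1565 ± 180 CPM in control cortex) and Gap43 (448 ± 72.1 against 897 ± 114 CPM) stayed high in control NPC. Of the radial glia genes, Hes5 (3.97 ± 1.87 against 16.5 ± 1.58 CPM) and Hopx (11.3 ± 2.54 against 19.5 ± 7.61 CPM) were lower there, and 7 of 9 were higher. Control cortex replicate 2 stood apart. Its summed levels were the highest of the 6 cortex libraries for markers of choroid plexus (1241 CPM), hippocampus (574 CPM), striatal projection neurons (794 CPM) and interneurons (601 CPM), and the lowest for meningeal fibroblasts (48.7 CPM) and microglia (99.8 CPM). The cKO replicate 3 was also rich in choroid plexus RNA (1133 CPM). By Ddx3y, 1 of 3 control and 2 of 3 cKO cortex libraries were female.

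In control cortex, Mef2c had the highest level per length, at 91.6 ± 4.85 CPM per kilobase of annotated exon (n = 3). Pou3f3 (36.2 ± 2.07) and Pou3f2 (29.5 ± 4.04) followed, and the libraries of these neighbours overlapped. Kitl stood at 24.3 ± 1.34, Cux2 at 12.8 ± 1.37 and Cux1 at 7.78 ± 1.03 CPM per kilobase. Rorb (3.99 ± 0.778) and Inhba (2.55 ± 0.519) were the lowest, and from Pou3f2 downwards no pair of neighbours overlapped. In control NPC the order was different: Kitl (63.2 ± 6.62) and Pou3f3 (52.9 ± 3.28) led and overlapped, ahead of Pou3f2 (10.4 ± 0.840), Rorb (8.57 ± 0.475), Cux1 (5.18 ± 0.335), Mef2c (3.48 ± 0.259), Cux2 (0.927 ± 0.0841) and Inhba (0.0309 ± 0.0314 CPM per kilobase). The order in the cKO cortex was that of the controls except that Kitl (26.8 ± 0.192) and Pou3f2 (26.2 ± 3.96) changed places with overlapping values.

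**Figure D1:**
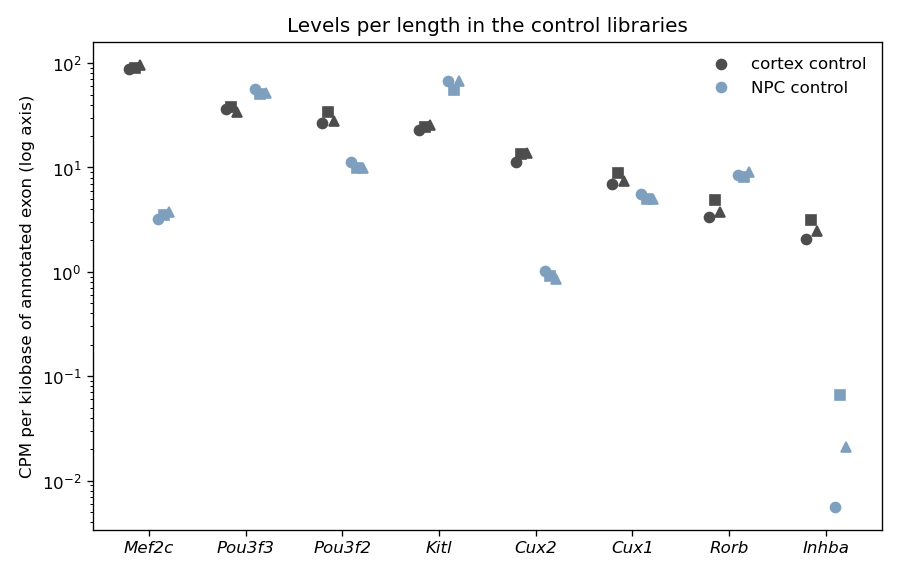
Level per length of each gene in the 6 control libraries, as CPM per kilobase of annotated exon on a log axis. Marker shapes are replicates 1 (circle), 2 (square) and 3 (triangle). Mef2c falls from first place in cortex (91.6) to 3.48 in NPC, while Kitl, Pou3f3 and Rorb lie higher in NPC.

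The expression of all 8 genes differed between the control NPC and the control cortex by edgeR's quasi-likelihood test (adjusted p under 0.05). Effects of tissue, culture, virus and any batch cannot be told apart in this contrast, and no test was made of whether the reads of both systems were counted in the same way. The 3 genes higher in NPC, where 38.4% of all tested genes were higher, were Kitl (log2 fold change 1.40, SE 0.10), Rorb (1.13, SE 0.13) and Pou3f3 (0.57, SE 0.08). The 5 lower genes, where 40.5% of all tested genes were lower, were Inhba (-6.36, SE 0.45), Mef2c (-4.69, SE 0.10), Cux2 (-3.77, SE 0.12), Pou3f2 (-1.48, SE 0.11) and Cux1 (-0.56, SE 0.10). With so many genes called, the count of 8 says little about these genes as a set. The sizes of the differences vary: the paired factors split, with Cux2 13.6-fold lower in NPC and Cux1 1.48-fold lower, and with Pou3f2 2.79-fold lower and Pou3f3 1.49-fold higher.

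The gene starts of this set differ as well. RefSeq (GRCm38.p6) gave 12 promoter windows for the 8 genes, each from 250 bases before to 50 bases after a start. The median window of all 32851 holds 7 CpG dinucleotides. Cux2 (48), Kitl (28), Cux1 (25), Pou3f2 (24), Rorb (20) and Pou3f3 (18) exceed it at their CpG-richest start, Mef2c reaches 10 there, and Inhba holds 7. The windows below are shown because they vary widely in CpG count among the genes that differed most between the systems. The first Mef2c start (chr13:83503784-83504083, plus strand, 1 CpG) and the Inhba start (chr13:16011601-16011900, plus strand) belong to the genes with the largest deficits in NPC. The Kitl start (chr10:100015571-100015870, plus strand) belongs to the gene with the largest excess. Mef2c is shown at its CpG-poorest start and Cux2 at its richest, while the other Cux2 start holds 4. The CpG-richest start of Cux2 (chr5:122049802-122050101, minus strand) is CpG-rich and belongs to a gene that was lower in NPC, so CpG content does not sort the 8 genes by direction. Capitals mark CpG dinucleotides.
Mef2c: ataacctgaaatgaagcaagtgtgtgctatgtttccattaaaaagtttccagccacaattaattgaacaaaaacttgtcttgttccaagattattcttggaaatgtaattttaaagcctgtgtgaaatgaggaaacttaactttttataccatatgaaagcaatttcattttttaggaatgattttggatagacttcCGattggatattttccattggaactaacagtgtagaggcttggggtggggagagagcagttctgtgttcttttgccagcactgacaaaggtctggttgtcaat
Inhba: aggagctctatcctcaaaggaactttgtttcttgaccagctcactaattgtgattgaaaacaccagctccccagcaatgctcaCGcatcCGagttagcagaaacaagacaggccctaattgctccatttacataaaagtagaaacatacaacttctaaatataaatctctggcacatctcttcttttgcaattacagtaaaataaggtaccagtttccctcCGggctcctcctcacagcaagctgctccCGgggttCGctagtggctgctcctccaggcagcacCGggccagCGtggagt
Kitl: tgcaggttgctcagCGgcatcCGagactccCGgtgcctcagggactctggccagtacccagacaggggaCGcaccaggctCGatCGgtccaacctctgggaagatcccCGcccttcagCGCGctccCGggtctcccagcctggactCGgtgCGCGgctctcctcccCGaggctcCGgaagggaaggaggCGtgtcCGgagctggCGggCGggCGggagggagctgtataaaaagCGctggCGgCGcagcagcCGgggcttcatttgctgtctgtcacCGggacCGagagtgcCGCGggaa
Cux2: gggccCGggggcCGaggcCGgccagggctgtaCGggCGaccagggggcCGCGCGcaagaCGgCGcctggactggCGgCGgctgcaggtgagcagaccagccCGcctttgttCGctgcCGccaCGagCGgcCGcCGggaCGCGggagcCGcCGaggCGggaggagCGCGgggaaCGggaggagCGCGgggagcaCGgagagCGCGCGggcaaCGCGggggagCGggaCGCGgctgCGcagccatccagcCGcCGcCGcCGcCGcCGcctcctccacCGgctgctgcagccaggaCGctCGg

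Motifs of 4 factor families were searched in the 12 windows on both strands. The POU octamer ATGCAAAT stood in 0 of 12 windows (1.74% of all promoter windows) and the MEF2 box, CTA and TAG with 4 bases of any kind between them, in 0 of 12 (3.69%). The nuclear receptor half-site AGGTCA stood in 2 of 12 (16.3%), both of them Mef2c starts. The CUX motif ATCGAT, which can lie inside a MEF2 box, stood in 1 of 12 (0.925%), and that window belongs to Cux2 itself, at its second start (chr5:122047776-122048075, minus strand), shown with the motif in capitals. A match is a description of letters and says nothing on binding.
Cux2 second start: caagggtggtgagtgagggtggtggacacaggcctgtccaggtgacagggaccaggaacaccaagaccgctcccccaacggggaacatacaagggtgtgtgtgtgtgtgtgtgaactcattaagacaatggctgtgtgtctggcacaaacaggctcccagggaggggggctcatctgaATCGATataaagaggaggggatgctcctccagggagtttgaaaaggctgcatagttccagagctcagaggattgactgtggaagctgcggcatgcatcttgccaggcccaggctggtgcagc

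In cortex, none of the 8 upper-layer genes passed the test between libraries labelled cKO and controls. Of 8 tested, 0 were called by edgeR over all genes (0.171% of all genes were called), 1 had an unadjusted p under 0.05 (10.9% of all genes), and 0 were called by DESeq2 (2.28% of all genes). Their median log2 fold change was -0.09, with 3 genes positive and 5 negative, beside 0.00 over all genes tested. In whole cortex, fewer cells of a type and less RNA per cell cannot be told apart.

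The CUX genes had values of opposite sign in cortex, neither of them past the test. Cux2 (ENSMUSG00000042589, chromosome 5, 121856366 to 122050102, minus strand, mm10) stood at 114, 136 and 139 CPM in the controls, against 111, 106 and 112 CPM in the libraries labelled cKO. All 3 cKO libraries lay below the lowest control, control replicate 1, which was close to them. The log2 fold change was -0.26 (SE 0.08, 95% confidence interval (CI) -0.44 to -0.09, unadjusted p = 0.00753), and the adjusted p of 0.247 did not pass. The value was -0.23 without control replicate 2 and -0.24 without the libraries rich in choroid plexus RNA. Interneurons may share Cux2, and the summed level of their markers was also lower. It was 562 to 601 CPM in controls, against 482 to 507 CPM in cKO libraries. Of the 11 markers, 8 were negative and 3 positive, and the part of interneurons in the Cux2 value was not tested. Cux1 (ENSMUSG00000029705, chromosome 5, 136248135 to 136567490, minus strand) stood at 140, 179 and 148 CPM in controls, against 176, 158 and 167 CPM in cKO libraries. The groups overlapped (log2 fold change 0.08, SE 0.09, 95% CI -0.12 to 0.28, adjusted p = 0.797). The Cux1 gene also encodes the Golgi protein CASP, and a whole-gene count pools both products.

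Neither POU factor differed detectably in cortex. Pou3f2 (ENSMUSG00000095139, chromosome 4, 22482780 to 22488366, minus strand) stood at 149, 191 and 156 CPM in controls, against 155, 122 and 164 CPM in cKO libraries. The spread within both groups was wide and they overlapped (log2 fold change -0.19, SE 0.12, 95% CI -0.45 to 0.07, adjusted p = 0.596). That value was -0.12 with sex as a covariate, -0.078 without control replicate 2 and -0.072 without cKO replicate 2. Pou3f3 (ENSMUSG00000045515, chromosome 1, 42695768 to 42703176, plus strand) stood at 271, 282 and 252 CPM in controls, against 257, 222 and 279 CPM in cKO libraries. Both genes were lowest in cKO replicate 2 and highest among the cKO libraries in replicate 3 (Pou3f3 log2 fold change -0.11, SE 0.09, 95% CI -0.30 to 0.09, adjusted p = 0.692). The Pou3f3 value was -0.023 without cKO replicate 2 and -0.18 without cKO replicate 3.

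For the layer IV receptor Rorb (ENSMUSG00000036192, chromosome 19, 18930605 to 19111196, minus strand), 1 control library set the sign of the cortex value. It stood at 37.0, 53.7 and 41.8 CPM in controls, against 45.4, 41.6 and 41.1 CPM in cKO libraries. Control replicate 2 was the highest of the 6 and control replicate 1 the lowest. Its log2 fold change was -0.07 (SE 0.13, 95% CI -0.35 to 0.21, adjusted p = 0.884), and 0.09 without control replicate 2. The same library was the highest control for Cux1, Pou3f2, Pou3f3, Rorb and Inhba, 5 of the 8 genes, and control replicate 1 was the lowest control for 7 of the 8, all but Pou3f3.

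Mef2c (ENSMUSG00000005583, chromosome 13, 83504034 to 83667080, plus strand) stood at 1372, 1423 and 1522 CPM in controls, against 1363, 1283 and 1331 CPM in cKO libraries. The cKO libraries all lay below the controls, the nearest pair being cKO replicate 1 and control replicate 1. Its difference on the log2 scale was -0.14 (SE 0.07, 95% CI -0.29 to 0.01), and with an adjusted p of 0.478 it did not pass. Microglia and endothelium also make MEF2C, and the summed levels of their markers were 99.8 to 128 CPM and 214 to 292 CPM in controls, and 119 to 129 CPM and 243 to 297 CPM in cKO libraries, with overlapping groups. Of these lists, the microglial gene Aif1 was at 0 in every cortex library and the endothelial gene Cldn5 stood at 0.310 ± 0.111 CPM in controls. Other microglial genes were counted in the cortex controls, from Tmem119 (1.69 ± 0.931 CPM) to Cx3cr1 (16.7 ± 1.44 CPM) and Csf1r (22.9 ± 4.87 CPM). Why Aif1 and Cldn5 were so low was not tested.

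Of the secreted ligands, Kitl was slightly higher and Inhba level in cortex. Kitl (ENSMUSG00000019966, chromosome 10, 100015630 to 100100416, plus strand) stood at 136, 144 and 151 CPM in controls, against 159, 159 and 157 CPM in cKO libraries. All cKO libraries exceeded all controls, and their SD was 1.14 CPM beside 7.93 CPM. On the log2 scale the difference was 0.12 (SE 0.06, 95% CI -0.01 to 0.25, adjusted p = 0.496), which did not pass. Inhba (ENSMUSG00000041324, chromosome 13, 16011851 to 16031621, plus strand) stood at 13.3, 19.9 and 15.8 CPM in controls, against 19.1, 15 and 16.9 CPM in cKO libraries, with overlapping groups. Its log2 fold change was 0.04 (SE 0.16, 95% CI -0.31 to 0.38, adjusted p = 0.953), and the sign turned without control replicate 1 (-0.09) or cKO replicate 1 (-0.06). In all, Kitl was the 1 gene of 8 whose cKO libraries lay wholly above the controls (10.5% of all tested genes did), and Cux2 and Mef2c were the 2 that lay wholly below (7.1% of all).

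**Figure D2:**
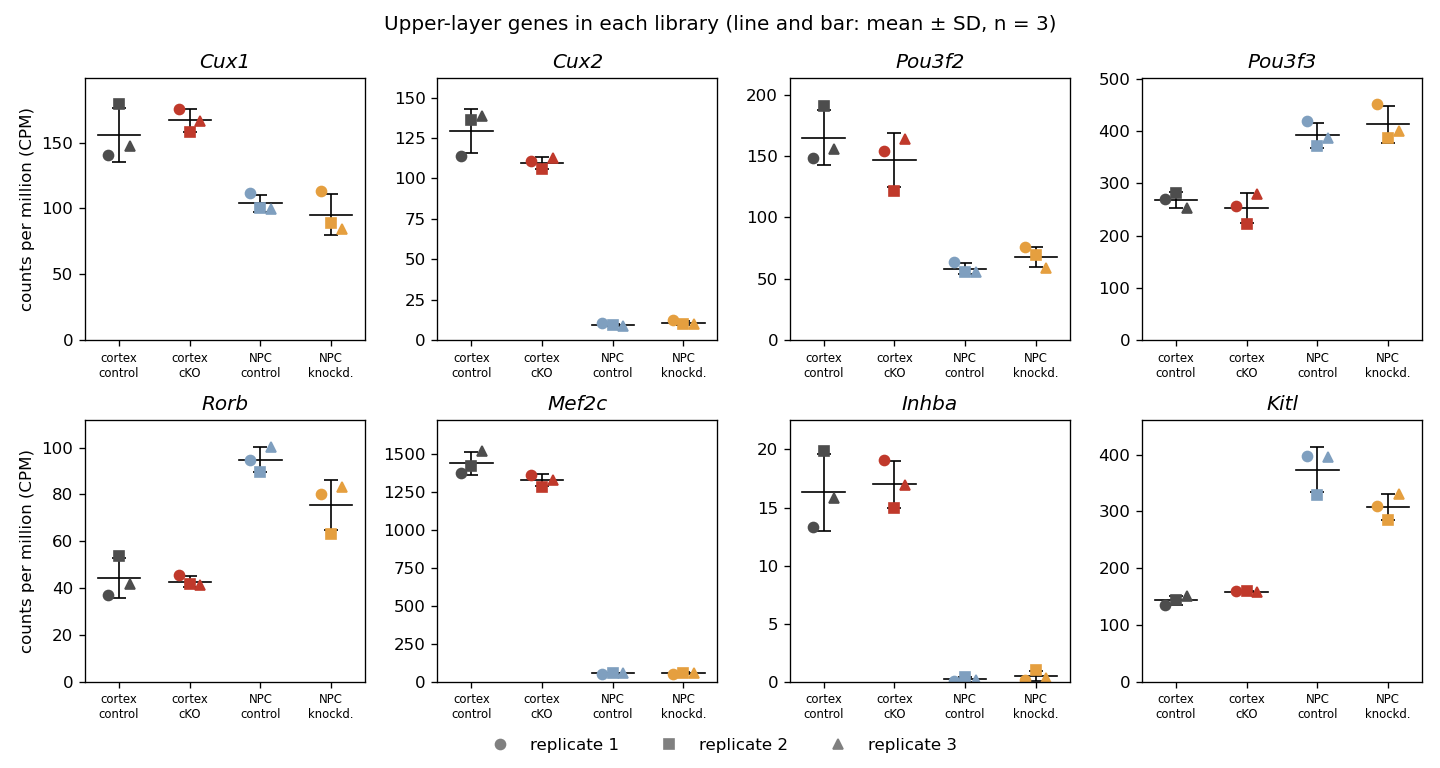
CPM of each gene in each library, by group, with the line and bar giving mean ± SD (n = 3) and the marker shape the replicate number. In cortex Cux2 and Mef2c lie lower and Kitl higher in every cKO library, by small margins, and in NPC Rorb lies lower in every knockdown library.

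In NPC labelled knockdown, Rorb and Kitl were lower and Pou3f2 higher when libraries of the same number were compared as pairs. Without pairs, 0 of 7 tested genes were called by edgeR (1.89% of all genes), 2 had an unadjusted p under 0.05 (18.3% of all), and 0 were called by DESeq2 (7.54% of all). With the replicate numbers as pairs, Pou3f2 rose (11.9% of all genes rose) and Rorb and Kitl fell (12.8% of all fell). DESeq2 with the pairs called Rorb and Kitl, while 18.9% of all genes passed. Inhba was too low to be tested in NPC, with 1, 11 and 4 counts in controls and 3, 30 and 9 counts in knockdown libraries. The median of the 7 tested genes was 0.01 with and without pairs, beside 0.00 and 0.01 over all genes. The share of these genes called is read against that background, and the values below concern single genes.

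Rorb had the largest difference of the tested genes in NPC. It stood at 94.6, 89.7 and 100.3 CPM in controls, against 80.3, 63.2 and 83.0 CPM in knockdown libraries. Among the 7 tested genes it was the 1 whose knockdown libraries lay wholly below the controls, as 12.2% of all tested genes did. The log2 fold change was -0.34 (SE 0.11, adjusted p = 0.188) without pairs and -0.34 (SE 0.06, 95% CI -0.48 to -0.21, adjusted p = 0.00108) with them. Without knockdown replicate 2 the unpaired value was -0.22. The related receptor gene Rora did not differ detectably (-0.01 with pairs, adjusted p = 0.919).

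Kitl was lower in the knockdown library of each pair. It stood at 397, 329 and 396 CPM in controls, against 309, 285 and 331 CPM in knockdown libraries. Replicate 2 was the lowest in both groups, and its control (329 CPM) lay just below knockdown replicate 3 (331 CPM), so the groups overlapped although every pair fell. The fold change on the log2 scale was -0.29 (SE 0.10, adjusted p = 0.197) without pairs and -0.28 (SE 0.05, 95% CI -0.39 to -0.17, adjusted p = 0.00126) with them. Kit, the gene of its receptor, stood at 13.7 ± 2.65 CPM in controls, against 11.5 ± 1.93 CPM in knockdown libraries (n = 3 each), with -0.27 and an adjusted p of 0.0524 with the pairs.

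Pou3f2 was higher in the knockdown library of each pair, while 2 other POU class III genes were lower. Pou3f2 stood at 63.7, 55.3 and 55.8 CPM in controls, against 75.6, 69.0 and 58.7 CPM in knockdown libraries. Pair 3 differed least, and knockdown replicate 3 lay below control replicate 1. The log2 fold change was 0.21 (SE 0.06, 95% CI 0.08 to 0.34, adjusted p = 0.0243) with the pairs, 0.21 (SE 0.11, adjusted p = 0.355) without them, and 0.15 (adjusted p = 0.273) without pair 2. Without knockdown replicate 1 the unpaired value was 0.13. DESeq2 gave 0.21 with an adjusted p of 0.0598. Pou3f3 stood at 419, 371 and 387 CPM in controls, against 452, 386 and 400 CPM in knockdown libraries, higher by a little in each pair (0.07, SE 0.05, adjusted p = 0.359 with the pairs). Pou3f1 fell by 0.34 (adjusted p = 0.0220) and Pou3f4 fell by 0.63 (adjusted p = 8.2e-05) with the pairs, the latter from 50.4 ± 2.63 to 33.0 ± 6.68 CPM. Sox2, a partner of POU factors in progenitors, fell by 0.50 (adjusted p = 8.5e-05), so that 3 of 5 genes of this list fell by edgeR (12.8% of all genes). DESeq2 with the pairs did not call Pou3f1 (adjusted p = 0.0965).

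The CUX genes and Mef2c did not pass in NPC. Cux1 stood at 112, 100.1 and 99.7 CPM in controls, against 113, 89.1 and 84.1 CPM in knockdown libraries. Pair 1 showed no fall, unlike pairs 2 and 3. With the pairs, the log2 fold change was -0.14 (SE 0.06, adjusted p = 0.103), and without pair 1 it was -0.21 (adjusted p = 0.00167). Cux2 was low, at 10.3, 9.17 and 8.60 CPM in controls, against 12.2, 9.77 and 9.70 CPM in knockdown libraries, higher in each pair (0.16, SE 0.10, adjusted p = 0.278). Mef2c stood at 50.3, 55.3 and 58.4 CPM in controls, against 48.7, 59.4 and 57.6 CPM in knockdown libraries. Its groups overlapped nearly fully (0.01, SE 0.06, adjusted p = 0.962 with the pairs). Of the tested genes, Cux2, Pou3f2 and Pou3f3 were higher in every pair (28.4% of all tested genes were) and Rorb and Kitl lower in every pair (25.5% of all). Inhba, which was not tested, was also higher in every pair, on few counts.

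**Figure D3:**
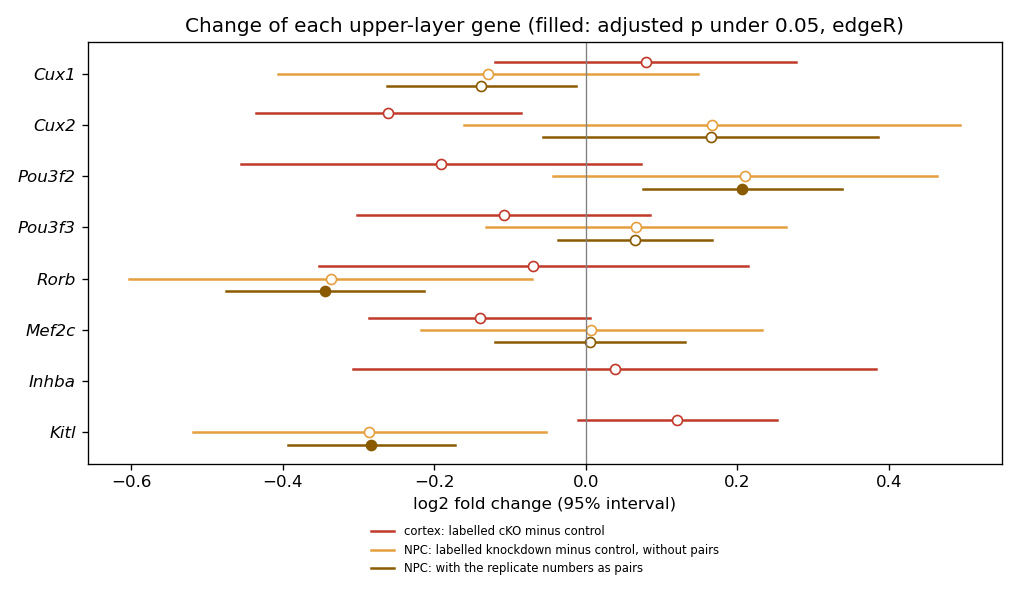
Log2 fold change of each gene with its 95% confidence interval in cortex (labelled cKO minus control) and in NPC (labelled knockdown minus control) without and with pairs. Filled points passed an adjusted p of 0.05: Pou3f2 at 0.21, Rorb at -0.34 and Kitl at -0.28, all with the pairs. Inhba was not tested in NPC.

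The cortex and NPC values pointed in opposite directions for several genes, and for Kitl the difference between them was at the edge of the threshold. In 1 fit of all 12 libraries, 0 of 8 genes were called by edgeR for the NPC difference minus the cortex difference (1.46% of all genes), and 3 had an unadjusted p under 0.05 (14.2% of all). Those were Cux2 (0.44, SE 0.15, adjusted p = 0.187), Pou3f2 (0.41, SE 0.18, adjusted p = 0.329) and Kitl (-0.39, SE 0.12, adjusted p = 0.136). DESeq2 called Kitl alone among the 8 (-0.40, adjusted p = 0.0499), while 5.87% of all genes passed. With the replicate numbers as pairs in both systems, edgeR gave Kitl -0.39 (SE 0.09, adjusted p = 0.0486), while 1.94% of all genes were called lower. That fit paired the cortex libraries as well, although residuals of same-numbered cortex libraries correlated at only 0.01, -0.20 and -0.04. A fit with pairs in NPC alone was not made. Kitl was higher in 3 of 3 cKO libraries than in every cortex control (10.5% of all genes were), and lower in 3 of 3 NPC pairs (25.5% of all). The cortex difference alone did not pass. The value for Inhba (1.31, SE 0.81) rests on NPC libraries with few counts.

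The balance of the paralogs Cux1 and Cux2 was compared within libraries, a ratio chosen after their levels were seen and so given with no test. Cux1 had 1.24, 1.32 and 1.07 counts per Cux2 count in control cortex and 1.59, 1.5 and 1.48 in cKO libraries. All cKO libraries exceeded all controls (difference of the mean log2 ratios 0.34). In NPC the ratio was 10.9, 10.9 and 11.6 in controls and 9.27, 9.12 and 8.67 in knockdown libraries. Here all knockdown libraries lay below the controls (-0.30). The NPC difference minus the cortex difference was -0.64, which was not tested. How many other gene pairs separate as fully was not computed, so the separation has no background to be read against. A ratio within a library shows unequal change of the pair and not which gene changed.

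**Figure D4:**
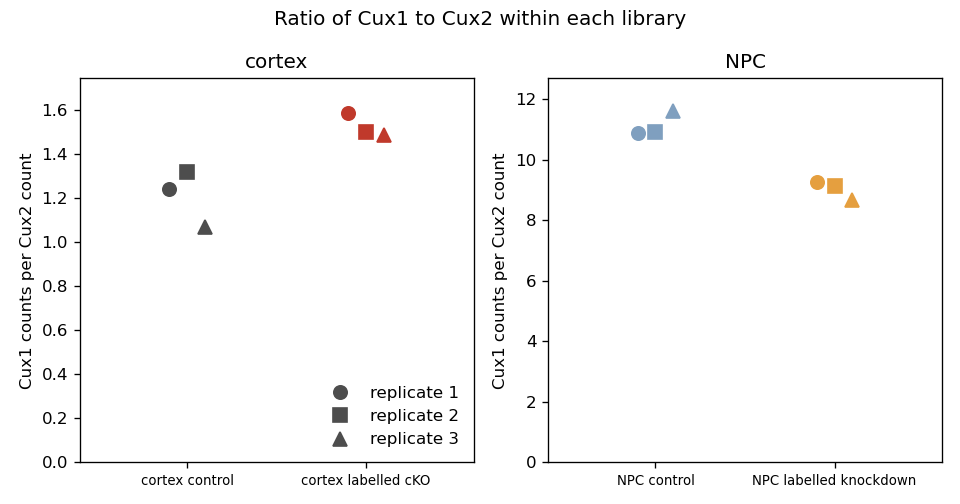
Cux1 counts per Cux2 count in each library, on separate axes from 0 for cortex and NPC. The cKO libraries (1.48 to 1.59) lie above the cortex controls (1.07 to 1.32), and the knockdown libraries (8.67 to 9.27) lie below the NPC controls (10.9 to 11.6).

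Other genes of upper-layer and callosal neurons showed both signs in cortex. Of 18 tested, 7 were positive and 11 negative, with a median log2 fold change of -0.08. By edgeR 0 of 18 were called (0.171% of all genes), and 5 of 18 had an unadjusted p under 0.05 (10.9% of all genes). DESeq2 called 3 of 18, with 2.28% of all genes called, 1 of them a rise and 2 falls. The rise was that of the semaphorin receptor gene Plxnd1 (0.38), and the falls included the adhesion gene Mdga1 (-0.31). The 10 deep-layer genes were split evenly, with a median of -0.01, 0 called by edgeR and 0 by DESeq2, and 1 at an unadjusted p under 0.05. The 8 pan-neuronal genes had a median of -0.01, and their summed level was 9939 to 10116 CPM in controls, against 9924 to 10235 CPM in cKO libraries. The 6 tested intermediate progenitor genes had a median of 0.14 and the 9 radial glia genes -0.02. The 11 interneuron genes had a median of -0.29, with 8 negative, 0 of 11 called by edgeR, 5 of 11 at an unadjusted p under 0.05 (10.9% of all genes) and 4 of 11 called lower by DESeq2, which called 2.28% of all genes. Over all marker lists of other cells, edgeR called 1 gene in cortex, the oligodendrocyte precursor receptor gene Gpr17 (-0.79, SE 0.10, adjusted p = 0.0213).

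**Figure D5:**
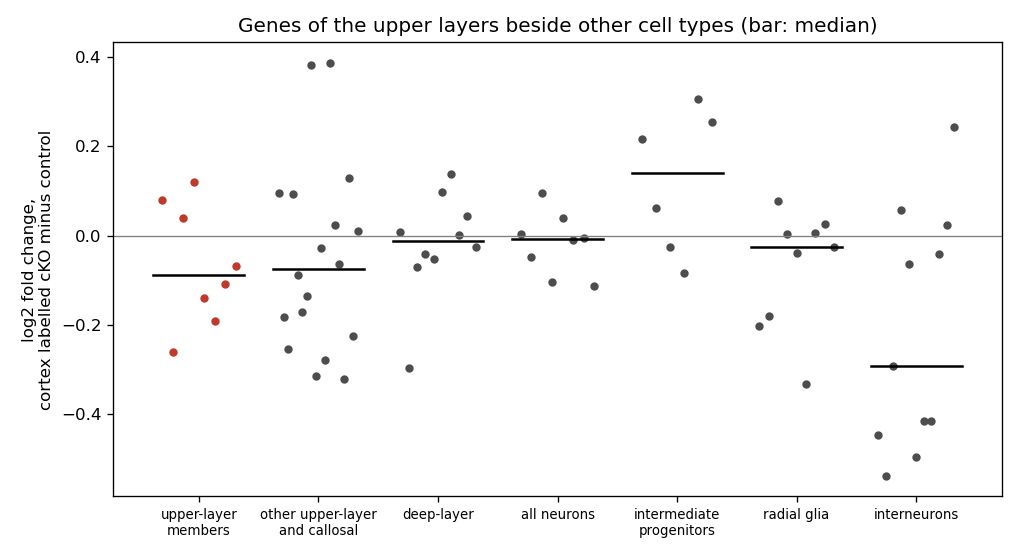
Log2 fold change in cortex (labelled cKO minus control) of each tested gene of 7 lists, with a bar at each median. The median is -0.09 for the 8 upper-layer genes, -0.08 for the other upper-layer and callosal genes, -0.01 for the deep-layer genes and -0.29 for the interneuron genes.

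In NPC, 15 of those 18 upper-layer and callosal genes could be tested and 11 were negative. Unc5d, a netrin receptor gene of migrating upper-layer neurons, fell from 5.56 ± 0.685 to 1.69 ± 0.363 CPM without pairs (log2 fold change -1.73, SE 0.22, adjusted p = 0.0115). It was the 1 gene of 15 called by edgeR without pairs (1.89% of all genes), and DESeq2 called 2 of 15 (7.54% of all). With the pairs 3 of 15 fell (12.8% of all genes fell) and 0 rose (11.9% of all rose), and the falls included Unc5d (-1.73) and the LIM factor gene Lmo4 (-0.62). The median over the 15 genes was -0.12 without pairs. In NPC, radial glia markers summed to 10567 to 10874 CPM in controls, against 10335 to 12140 CPM in knockdown libraries. Markers of the oligodendrocyte lineage summed to 2810 to 2850 CPM and 2949 to 2993 CPM. Olig1 (mean 1653 CPM) and Olig2 (1059 CPM) made up most of that sum in controls. Against control cortex, these and Cspg4 (73.6 against 15.7 CPM) were higher in control NPC. The means of Pdgfra (32.0 against 106 CPM), Sox10 (5.68 against 10.3 CPM) and Gpr17 (4.32 against 25.5 CPM) were lower. Whether the cultures held cells of the oligodendrocyte lineage was not tested. Cx3cr1 and Lhx6 were at 0 in every NPC library. The part of different cell types in the NPC values was not tested.

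Among the partners of MEF2C, the class IIa histone deacetylases that repress it were lower in NPC with the pairs. Hdac4 (-0.20), Hdac5 (-0.27), Hdac7 (-0.18) and Hdac9 (-0.39) fell by edgeR, 4 of 6 tested genes of that list (12.8% of all genes fell), while Mef2a (-0.09) and Mef2d (0.10) did not pass. DESeq2 with the pairs called 2 of the 4, Hdac5 and Hdac9. Without pairs edgeR called 0 of the 6, with 3 at an unadjusted p under 0.05 (18.3% of all genes), and DESeq2 called Hdac5. In cortex 0 of 6 were called by either tool, 0 had an unadjusted p under 0.05, and the median was -0.01. In activin signalling, Fst, which encodes the activin-binding protein follistatin, rose with the pairs from 4.30 ± 0.717 to 7.83 ± 0.904 CPM (0.86, SE 0.16, adjusted p = 0.00149). Among the signal carriers, Smad3 (-0.39) and Smad4 (-0.18) fell, while Smad2 (90.7 ± 2.30 to 87.3 ± 2.51 CPM) was not called. This makes 1 of 12 tested activin genes higher (11.9% of all) and 2 lower (12.8% of all). DESeq2 with the pairs called Fst and Smad3 and did not call Smad4. The receptor genes Acvr2a (0.01) and Acvr2b (-0.01) did not pass, and without pairs edgeR called 0 of the 12, with 2 at an unadjusted p under 0.05 (18.3% of all), while DESeq2 called Fst. In cortex 0 of 14 activin genes were called by edgeR, 2 had an unadjusted p under 0.05 (10.9% of all), and DESeq2 called a fall of the inhibin alpha gene Inha (-0.44). Fst stood at 16.1 ± 1.19 and 16.6 ± 0.773 CPM there, and Kit at 97.5 ± 9.74 and 103 ± 8.61 CPM (n = 3 each), with no call.

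Over the 12 libraries, 1 gene whose log2 CPM ran most like each member was sought among 11705 genes. These were Skil for Cux1, Eml1 for Cux2, Strn3 for Pou3f2, Miip for Pou3f3, Nectin3 for Rorb, Gm3226 for Mef2c, Lrrc4c for Inhba and Amotl1 for Kitl, with Pearson r from 0.98 (Miip) to 0.9995 (Gm3226). The correlation is a description. The libraries fall into 2 systems whose levels differ for most genes, and 2201 to 3652 genes exceeded r = 0.9 with each member. Nectin3, the gene most like Rorb, encodes an adhesion protein and belongs to the list of other upper-layer genes.

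The hexamers ACCGAC and CCGACT, which were singled out earlier on these same NPC data, were looked for in the annotated 3′ UTR of each member, read from 1 transcript each. Either stood in 11.2% of 12693 genes tested in NPC with a 3′ UTR of at least 50 bases. Those of the members run from 4014 bases (Pou3f2) to 8376 bases (Cux1). A longer UTR has more places for a hexamer, and the share was not matched for length, so it is no yardstick for the members. Cux1 held both, Pou3f2 and Mef2c held 1 each, and Rorb, Kitl, Cux2, Pou3f3 and Inhba held 0. In Cux1 (chr5:136274174-136274203, minus strand, mm10) the hexamers overlap in ACCGACT. Pou3f2 (chr4:22482840-22482869, minus strand) held CCGACT and Mef2c (chr13:83664170-83664199, plus strand) ACCGAC. The sites are shown with the hexamers in capitals, since they place the members beside that earlier pattern, and say nothing on binding.
Cux1: ttgcacagtcaaACCGACTctaaacacact
Pou3f2: cacactatgttcCCGACTcatgctggccat
Mef2c: gtcctgggggcgACCGACctgctttacttg

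The counts of the 8 genes are little shared with other genes. Between 0 and 1.97% of their exonic 50-base stretches occurred in another annotated gene, the highest share in Cux1, whose exons overlap the antisense gene Gm16599 over 394 bases. That gene had at most 4 counts in any library. Whether the counting used strand is not known from the sources used here.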

How the data were processed

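Per the submitters' processing notes, the authors aligned reads to mm10 with HISAT2 (version not given in the sources used here). Values in the deposited table are raw counts of reads in each gene, whole numbers with another total in each library. Which program and annotation produced them is not given in the sources used. The genes and lists were chosen with earlier results of these data known. Named genes were the 8 genes, Srsf10, genes of their families and partners, up to 3 called members per list and the gene most alike. Others were singled out after their values were seen: the genes called only by DESeq2, the other class IIa histone deacetylases, Tubb3, Tbr1, Nes, Ddx3y, Aif1, Cldn5, Cx3cr1 and Lhx6. So were Olig1, Olig2, Pdgfra, Sox10, Cspg4, Map2, Gap43, Hes5, Hopx, Csf1r, Tmem119, Smad2 and Gm16599.

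Counts were normalised by TMM and compared by quasi-likelihood tests in edgeR 4.0.16 (R 4.3.3) after filterByExpr, with Benjamini-Hochberg adjustment over all genes tested. DESeq2 1.42.0 was an alternative. An adjusted p under 0.05 was called. Fold changes are treated minus control. Levels are counts-per-million (CPM) of the library total, and levels per length divide by the exon length of GENCODE release 21 (34076 of 34102 identifiers found). The common biological coefficient of variation was 0.150 in cortex and 0.145 in NPC. Libraries held 26074094 to 36713205 counts, so the spread between libraries limits precision. Replicates differed by more than counting noise (chi-square per degree of freedom 7.52 to 42.9), so none was a copy.

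The shared replicate numbers pair the NPC libraries: residuals of same-numbered libraries correlated at 0.60, 0.59 and 0.56 in NPC, and at 0.01, -0.20 and -0.04 in cortex. The procedure was tested on simulated data. Other settings were RLE size factors, no count filter, 1 fit of all libraries, the replicate block, sex (male above 10 CPM of Ddx3y), leaving out libraries above 1000 CPM of Ttr and leaving out each library. Alternatives of the paired NPC fit and of the Cux1 to Cux2 ratio were added after seeing the data. Likeness used log2 of CPM plus 0.5 where the mean was 5 CPM or more. Some genes of the lists are not reported here by name. Figures were drawn with matplotlib.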

Additional observations from a re-analysis of the deposited data

Results flagged for a closer look

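The difference of Kitl ran in opposite directions in the 2 systems. The NPC difference minus the cortex difference was -0.39 on the log2 scale with the replicate numbers as pairs in both systems (adjusted p = 0.0486 by edgeR). The cortex libraries showed no such pairing in their residuals, so this p-value rests partly on pairs that the cortex data do not show. Kitl was higher in 3 of 3 cKO libraries than in any cortex control, as were 10.5% of all tested genes. It was lower in the knockdown library of 3 of 3 NPC pairs, as were 25.5% of all tested genes. The cortex difference alone was called by neither edgeR nor DESeq2. Without pairs the adjusted p was 0.136, and over the library left out in turn it ran from 0.0609 to 0.307.

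The log2 ratio of Cux1 to Cux2 counts was higher in every cKO library than in any cortex control and lower in every knockdown library than in any NPC control. The NPC difference minus the cortex difference was -0.64. The ratio was chosen after the levels were seen, and the difference was not tested. How many other gene pairs separate as fully was not computed. Neither gene alone was called in cortex or, with all pairs kept, in NPC.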

How the results depend on the processing

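The number of the 8 genes called by edgeR in cortex stayed at 0 under every setting tried, from 0 to 0 when libraries were left out in turn, and at 8 for control NPC against control cortex (8 to 8). In NPC it was 0 under the settings other than the replicate block (0 to 0 with libraries left out) and 3 with the replicate block, whose pairing is described above. With the pairs, leaving out 1 pair gave 2 to 4: without pair 1 Cux1 also passed, and without pair 2 Pou3f2 did not. For the difference between systems it was 0 (0 to 0 with libraries left out), 1 with DESeq2 and 1 with the replicate block, Kitl in both. That block paired the cortex libraries as well as the NPC libraries. The replicate block changed no call in cortex.

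Of the single-gene values recomputed, 433 kept their direction and their side of the threshold, 6 newly passed, 2 no longer passed, and 9 changed sign. In cortex these were Rorb (0.12 without the libraries rich in Ttr, and -0.18 to 0.092 with 1 library left out, positive without control replicate 2) and Inhba (-0.091 to 0.20 with 1 library left out, negative without control replicate 1 or cKO replicate 1). In NPC they were Mef2c (-0.044 to 0.093 with 1 library left out, negative without control replicate 1 and knockdown replicates 2 or 3, and -0.042 with the pairs and without pair 2) and Pou3f3 (-0.0012 without knockdown replicate 1). The cause was not tested, beyond the fewer libraries. Over all genes, the cortex calls ranged from 0 (without cKO replicate 1) to 338 (DESeq2), beside 27, and the NPC calls from 47 (without control replicate 3) to 3522 (replicate block), beside 270.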
